A study of Mus musculus with 12 samples.

Results

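Rab genes encode the largest branch of the Ras superfamily of small GTPases, and their transcripts were followed here in C3H10T1/2, a mouse mesenchymal line of embryonic origin that can be led towards cartilage, bone or fat. A gene was taken as a Rab gene when its symbol in the array annotation was Rab, a number and at most a letter and a digit. Where several probe sets read the same gene, the probe set whose mean across the 12 arrays was highest stands for it. This gave 59 Rab genes out of 18193 genes with a single symbol. The 12 Affymetrix arrays fall into 4 groups of 3. In the over-expression experiment, the siRNA-140 group received a mimic of miR-140, and siRNA-96, named for miR-96, was the control. In the suppression experiment, the anti-miR-140 group received LNA-antimicroRNA-140, a locked nucleic acid oligonucleotide that blocks the cells' own miR-140, and LNA-antimicroRNA-449 was the control (anti-miR-449 group). All 4 groups were transfected, and no untreated group was among them, so that each comparison sets miR-140 against the manipulation of another microRNA. Doses and times are not given in the labels. Whether the replicates came from separate cultures is not stated, and p-values then measure only the spread between these arrays, which may be technical.

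A Rab protein works as a switch. Bound to GTP it sits on the membrane of a particular organelle and recruits effectors such as tethers, motors and coat adaptors. Exchange factors load the GTP and GTPase-activating proteins end the active state. A lipid group on C-terminal cysteines holds the protein in the membrane, and GDI proteins carry the inactive form through the cytosol. The members divide the traffic routes of the cell between them, from the endoplasmic reticulum and Golgi through endosomes to lysosomes and secretory granules. In cells that secrete matrix, these routes carry collagen outwards and integrins and growth factor receptors back.

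The microRNAs the 4 agents are named for are shown as RefSeq mature sequences (GRCm38.p6), 5′ to 3′, with the seed (bases 2 to 8, the part that pairs with a target) in capitals, because the design rests on these seeds being unlike each other. Which strand each agent carried or blocked is not given in the labels, and miR-140-5p is named only. The positions are chr8:107551288-107551308 (plus strand) for miR-140-3p, chr6:30169506-30169528 (minus strand) for miR-96-5p, and chr13:113037549-113037570 and chr13:113036008-113036028 (plus strand) for miR-449a-5p and miR-449c-5p.
mmu-miR-140-3p: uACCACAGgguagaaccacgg
mmu-miR-96-5p: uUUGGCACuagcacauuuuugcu
mmu-miR-449a-5p: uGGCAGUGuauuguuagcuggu
mmu-miR-449c-5p: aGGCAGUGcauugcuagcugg
The miR-449 pair shares a seed, and that seed differs from those of miR-140-3p and miR-96-5p. The arrays do not read mature microRNAs.

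Values are RMA log2 values, a scale on which 1 unit is 2-fold. RMA gives no detection call, so a level is described only by whether it lay above or below the median of all probe sets of its array, and levels of different genes are not compared. Array medians were 3.95 to 4.02 in the siRNA arrays and 4.32 to 4.38 in the anti-miR arrays, so levels were not on a single scale across the experiments and were not tested across them. Of 10 mesenchymal markers, 9 lay above the median in every array, Col1a1, Col1a2 and Vim among them; Thy1 lay below it. Of 6 pigment cell markers, Sox10 was above it in every array, and Tyr, Tyrp1, Dct and Mlana were below it in every array. Before any Rab result, 2 arrays have to be named: siRNA-140 replicate 3 lay with siRNA-96 replicates 2 and 3, and siRNA-96 replicate 1 lay with siRNA-140 replicates 1 and 2. Usp18, an interferon-induced protease gene, shows it: in order of replicate number, the order used throughout, its values were 3.85, 4.67 and 8.01 after siRNA-140 against 4.65, 8.92 and 9.30 after siRNA-96. Whether the labels of these 2 arrays are as intended cannot be told from the files, and every labelled siRNA value rests on them. The siRNA comparison is therefore given with all 6 arrays and again without these 2. They were left out because of their values, so the adjusted p-values of the 4-array fit cannot count as evidence that miR-140 had an effect.

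The first comparison asks which Rab transcripts change when miR-140 is raised. In the labelled groups, none of the 59 Rab genes passed limma's test at an adjusted p under 0.05, as for 0% of all genes; the smallest adjusted p among them was 0.997. At an unadjusted p under 0.05 there was 1 Rab gene, Rab40b, which is 1.69% of the family where 1.98% of all genes were at that level. The groups did not overlap for 2 Rab genes, Rab40b and Rab3d, where 5.8% of all genes showed no overlap. The median log2 difference of the family was 0.07, against 0.03 over all genes, and 46 of the 59 (78%) lay above 0 against 57% of all genes. The family median fell to 0.03 after a further quantile normalization, and its SD between arrays of a group was 0.055. All members were read on the same 6 arrays, so the 46 are not independent results. For 56 of them the 95% interval of the difference lay within 1 log2 unit of 0 in both directions; the other 3 were Rab32, Rab35 and Rab39b, whose intervals were wider.

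Rab32, which with Rab38 steers enzymes to melanosomes and related organelles and also anchors protein kinase A at mitochondria, read 9.49, 9.64 and 8.42 after siRNA-140. After siRNA-96 it read 9.31, 8.44 and 8.23. The values thus formed a high set of 3 arrays and a low set of 3 arrays, each holding arrays of both labels. The group means were 9.18 ± 0.67 (SD, n = 3) and 8.66 ± 0.57 (n = 3), and the difference of 0.52 ± 0.36 (SE; 95% interval -0.31 to 1.35) did not pass (limma adjusted p = 0.997). Without the 2 arrays it was 1.23 ± 0.15, or 2.35-fold higher after siRNA-140 (n = 2 against 2; limma adjusted p = 0.00139). Rab32 has a single probe set, so no second reading stood beside it. Rab38, its closest relative by role, read 4.70, 4.29 and 4.14 after siRNA-140 against 4.04, 4.20 and 4.35 after siRNA-96, with no such arrangement. It differed by 0.18 ± 0.16 as labelled and by 0.22 ± 0.17 without the 2 arrays (adjusted p = 0.652).

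**Figure D1:**
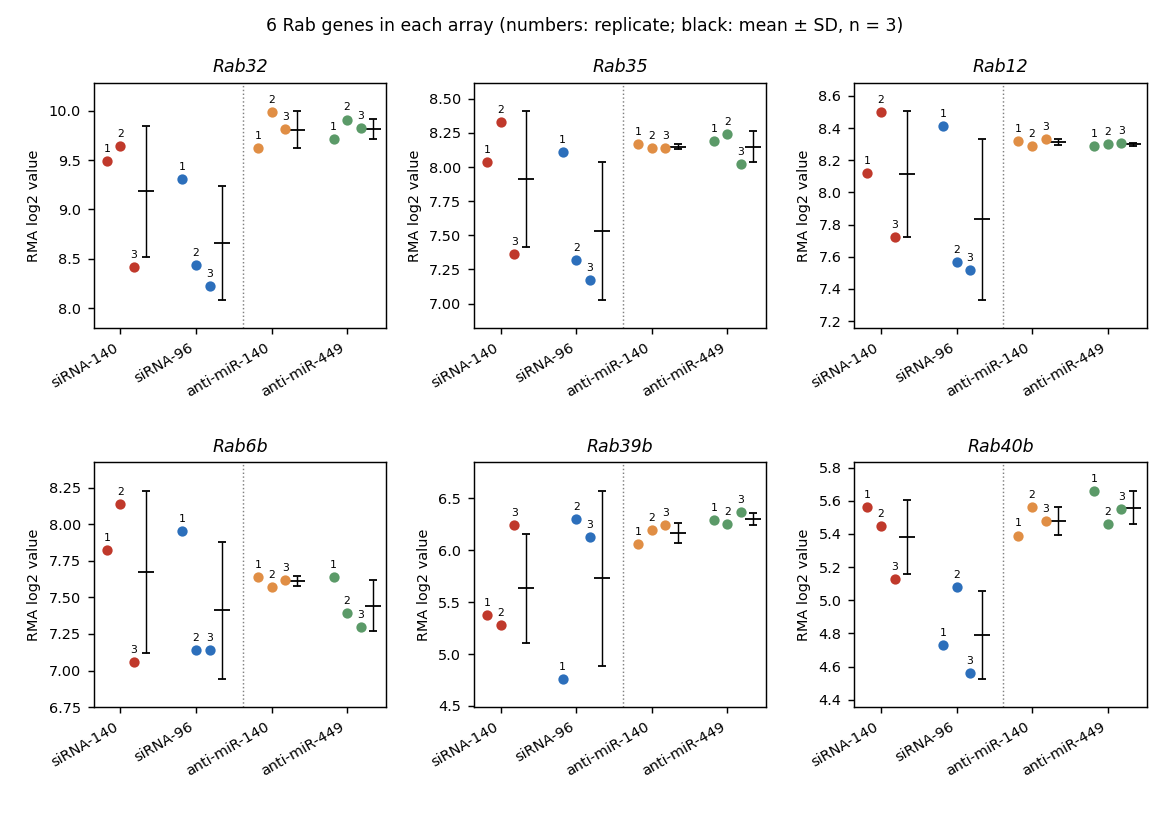
RMA log2 values (y axis) of 6 Rab genes in the 12 arrays, by group (x axis); each point is an array with its replicate number, and the black mark is the group mean ± SD (n = 3). In the siRNA arrays, replicate 3 of siRNA-140 and replicate 1 of siRNA-96 sit with the opposite label for Rab32, Rab35, Rab12, Rab6b and Rab39b, whereas for Rab40b all 3 siRNA-140 arrays lie above all 3 siRNA-96 arrays; the anti-miR arrays of each gene lie close together.

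Rab35, which drives fast recycling from endosomes and the last step of cell division, read 8.04, 8.33 and 7.36 after siRNA-140 against 8.11, 7.32 and 7.17 after siRNA-96. Rab12, which acts in the breakdown of recycling receptors and in autophagy, read 8.12, 8.50 and 7.72 after siRNA-140 against 8.41, 7.57 and 7.52 after siRNA-96. Rab6b, the form of Rab6 best known from neurons and a regulator of Golgi traffic, read 7.82, 8.14 and 7.06 after siRNA-140 against 7.95, 7.14 and 7.14 after siRNA-96. All 3 genes were high and low in the same arrays as Rab32. Labelled differences were 0.38 ± 0.30 for Rab35, 0.28 ± 0.27 for Rab12 and 0.26 ± 0.30 for Rab6b (limma adjusted p = 0.997 for each). With single arrays left out they ranged from 0.17 to 0.67, from 0.087 to 0.57 and from 0.03 to 0.57. Without the 2 arrays they were 0.94 ± 0.16 (adjusted p = 0.0084), 0.77 ± 0.16 (adjusted p = 0.028) and 0.84 ± 0.16 (adjusted p = 0.0144). The 3 other probe sets of Rab6b gave 0.82 (adjusted p = 0.0295), 0.58 (adjusted p = 0.181) and 1.20 (adjusted p = 0.00123) in that fit. The second probe set of Rab12, whose mean of 4.06 is below the median of all probe sets, gave 0.17 (adjusted p = 0.755).

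Rab39b ran the other way. This gene, mutated in an X-linked form of intellectual disability with parkinsonism, encodes a Golgi and vesicle Rab. It read 5.38, 5.28 and 6.24 after siRNA-140 against 4.76, 6.30 and 6.13 after siRNA-96, so the 3 arrays that were high for Rab32 were low for Rab39b. The labelled difference was -0.10 ± 0.41 (interval -1.03 to 0.84), and its sign changed when single arrays were left out. Without the 2 arrays it was -0.89 ± 0.15 (adjusted p = 0.00803). Its second probe set gave -0.38 (adjusted p = 0.289), lower as well but not past the test.

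Rab40b followed the labels. Rab40 proteins carry a SOCS box and serve as substrate receptors of a cullin ubiquitin ligase, and Rab40b acts in the secretion of matrix metalloproteases. It read 5.56, 5.45 and 5.13 after siRNA-140 against 4.73, 5.08 and 4.56 after siRNA-96, so that the lowest siRNA-140 array lay above the highest siRNA-96 array. The means were 5.38 ± 0.22 (SD, n = 3) and 4.79 ± 0.27 (n = 3). The difference of 0.59 ± 0.17 (interval 0.21 to 0.97; 1.51-fold) had an unadjusted p of 0.00734 and an adjusted p of 0.997 by limma, so it did not pass. Without the 2 arrays it was 0.69 ± 0.18 (adjusted p = 0.0716). Its dim second probe set, with a mean of 3.72, gave -0.10 as labelled (unadjusted p = 0.386).

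Rab3d, a Rab of secretory granules, was the other gene without overlap: 4.38, 4.22 and 4.45 with siRNA-140 against 4.51, 4.50 and 4.68 with siRNA-96, a difference of -0.21 ± 0.11 (unadjusted p = 0.0966, limma adjusted p = 0.997). The 3 other Rab3d probe sets gave 0.21, -0.04 and 0.03, so they did not share its sign throughout. On the lower side, Rab19 differed by -0.22 ± 0.18 and Rab17, known from transcytosis in epithelia, by -0.19 ± 0.15; Rab17 lay below the array median in every array. The 45 Rab genes outside the naming rule, some of them named elsewhere for other reasons, differed by -0.14 to 0.30 as labelled.

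**Figure D2:**
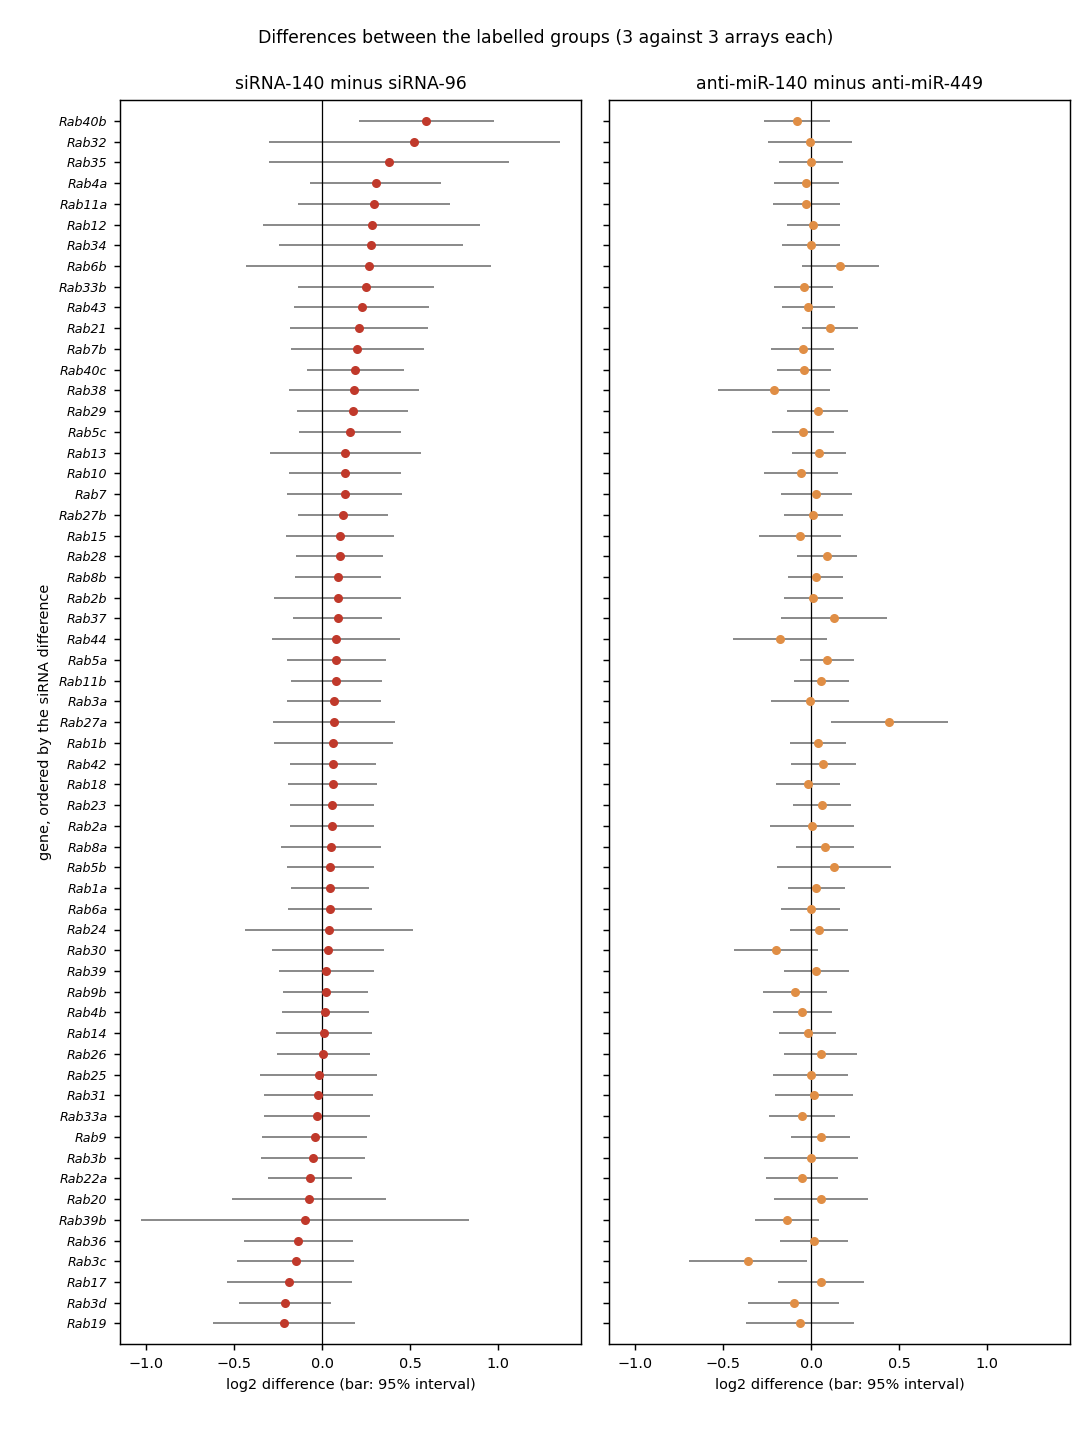
Log2 difference (x axis) of each of the 59 Rab genes (y axis, ordered by the siRNA difference) between the labelled groups, siRNA-140 minus siRNA-96 on the left and anti-miR-140 minus anti-miR-449 on the right; points are estimates and bars 95% intervals from 6 arrays each. In the siRNA panel only the interval of Rab40b lies apart from 0, the intervals of Rab32, Rab35 and Rab39b are wide, and in the anti-miR panel those of Rab27a and Rab3c lie apart from 0.

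Without the 2 arrays, 5 of the 59 Rab genes passed the test. Higher with siRNA-140 were Rab32, Rab35, Rab12 and Rab6b, 4 of 59 where 2.45% of all genes passed on that side. Lower was Rab39b, 1 of 59 where 2.39% passed. The median difference of the family was 0.08 against 0.04 over all genes, and 16 of the 59 were at an unadjusted p under 0.05, 15 of them higher, where 16.6% of all genes were at that level. Over all genes, 1752 of the 3027 at that level were higher. By role, 1 of 2 genes of melanosomes and related organelles was called higher, 1 of 9 of endosome recycling, 1 of 7 of late endosomes, lysosomes and autophagosomes, and 1 of 14 of endoplasmic reticulum and Golgi traffic, which also held the gene called lower. No gene was called among the 7 of early endosomes, the 12 of exocytosis and regulated secretion, the 3 of cilia or the 5 others. Rab34, a Rab of ciliogenesis and macropinosomes, differed by 0.66 (adjusted p = 0.0699) and Rab11a of slow recycling by 0.60 (adjusted p = 0.0633), next in size after Rab40b among the genes that did not pass. Their second probe sets gave 0.64 (limma adjusted p = 0.0581) for Rab34 and 0.14 (limma adjusted p = 0.814) for Rab11a. With any of the 4 arrays left out as well, the count fell from 5 to 0, and with the anti-miR arrays added to the fit it was 12, where 11.1% of all genes passed.

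Several measures moved with this arrangement of arrays. Vnn1, a pantetheinase gene, read 10.37, 10.51 and 5.52 after siRNA-140 against 10.04, 5.66 and 5.27 after siRNA-96, high where Rab32 was high. Mitf, the regulator of pigment cell genes, read 5.59, 5.52 and 4.03 against 5.34, 3.81 and 3.46, again high in the same arrays. Marker lists of other cell types are given as the mean log2 value of the list. The pigment cell list read 3.55, 3.50 and 3.37 after siRNA-140 against 3.53, 3.37 and 3.51 after siRNA-96, so it did not part fully along the Rab32 values. Its members Dct (3.24, 3.25 and 2.86 against 3.09, 2.78 and 2.86) and Mlana (3.20, 3.16 and 2.78 against 3.20, 2.85 and 3.02) did part that way, both below the array median. Tyr, Tyrp1, Pmel and Sox10 did not, and 0 of 6 were called in the 4-array fit. The mesenchymal list read 10.15, 10.15 and 10.33 against 10.02, 10.36 and 10.33, low in each array that was high for Rab32. Of its 10 members 1 was called, the collagen gene Col3a1, at -1.12. Its members did not move together. Col1a1, Col1a2, Col3a1, Pdgfra and Pdgfrb were low in those arrays, whereas Prrx1 and S100a4 were high in them. Thy1, Vim and Twist1 did not part along the Rab32 values. The endothelial list read 3.66, 3.54 and 3.43 against 3.62, 3.46 and 3.42, high in each array that was high for Rab32. Of its 4 members 1 was called (Tek, 0.60), where 4.83% of all genes were called in the 4-array fit. Tek alone parted along the Rab32 values, and Pecam1, Cdh5 and Kdr did not. The epithelial list read 3.74, 3.62 and 3.86 against 3.84, 3.65 and 3.76 and did not part that way (0 of 6 called). None of 5 was called in the leukocyte list (4.42 to 4.61) or of 5 in the neuronal list (4.42 to 4.59). In the leukocyte list, Cd14 was high and Cd68 low in each array that was high for Rab32. Ptprc, Csf1r and Adgre1 did not part that way, nor did any neuronal member. The control probe sets for 18S ribosomal RNA read 5.62, 6.73 and 5.68 after siRNA-140 against 10.47, 5.40 and 7.86 after siRNA-96, so they did not follow the Rab32 values. The part of these measures in the Rab values was not tested. Fewer cells of a kind and less RNA per cell cannot be told apart in such bulk samples.

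**Figure D3:**
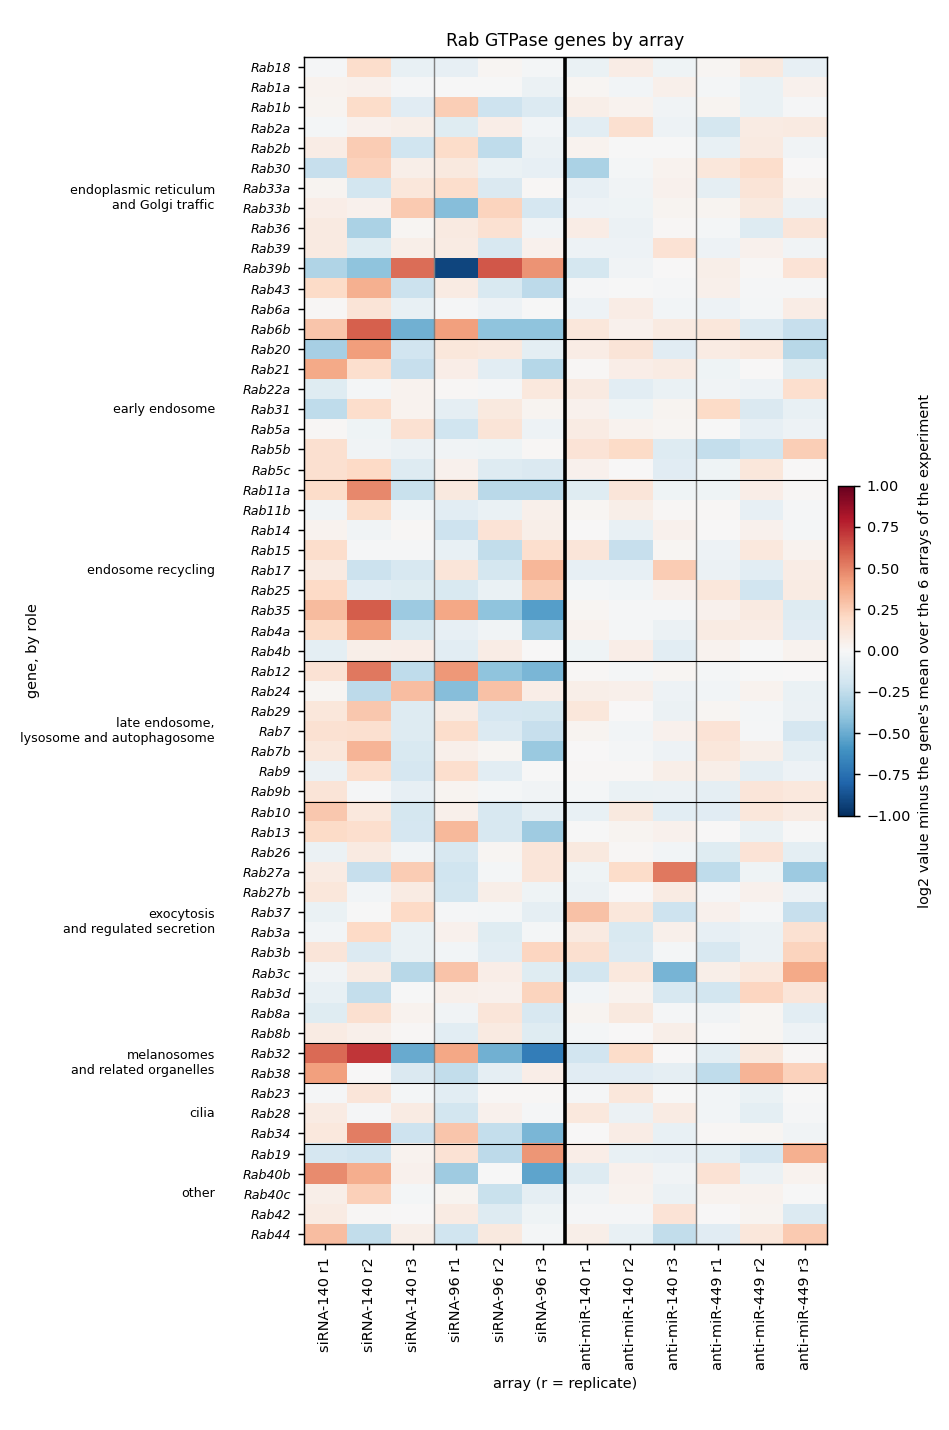
Each of the 59 Rab genes (rows, grouped by role) in each of the 12 arrays (columns); colour is the log2 value minus the gene's mean over the 6 arrays of its experiment, from -1 (blue) to 1 (red), and the thick line parts the experiments. In the siRNA arrays Rab32, Rab35, Rab12 and Rab6b are red in siRNA-140 replicates 1 and 2 and siRNA-96 replicate 1 and blue in the rest, Rab39b is the reverse, and most other rows are paler; the strongest colours in the anti-miR columns are those of Rab27a and Rab3c.

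The 250 bases upstream of the RefSeq start are shown for 3 genes as examples. Rab32 had the largest difference without the 2 arrays, and Rab39b was called in the opposite direction. Rab40b had the largest labelled siRNA difference, which did not pass. Its groups did not overlap, as for Rab3d and for 5.8% of all genes. The sequences are from GRCm38.p6, 5′ to 3′ on the gene's own strand, which is minus for all 3: chr10:10558208-10558457, chrX:75578232-75578481 and chr11:121388252-121388501. Capitals mark matches, on either strand, to the motifs GGGCGG (the GC box), CACGTG and CATGTG (E-boxes) and TATAAA (the TATA box).
Rab32: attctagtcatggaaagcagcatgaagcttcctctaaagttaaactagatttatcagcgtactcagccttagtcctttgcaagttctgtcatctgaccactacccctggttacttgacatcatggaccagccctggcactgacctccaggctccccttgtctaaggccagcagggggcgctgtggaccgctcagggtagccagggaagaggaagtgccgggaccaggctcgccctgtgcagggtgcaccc
Rab39b: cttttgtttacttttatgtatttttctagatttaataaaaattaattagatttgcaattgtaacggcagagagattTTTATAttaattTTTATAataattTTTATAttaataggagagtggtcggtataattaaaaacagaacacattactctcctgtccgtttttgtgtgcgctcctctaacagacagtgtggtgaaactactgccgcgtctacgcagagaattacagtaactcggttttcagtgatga
Rab40b: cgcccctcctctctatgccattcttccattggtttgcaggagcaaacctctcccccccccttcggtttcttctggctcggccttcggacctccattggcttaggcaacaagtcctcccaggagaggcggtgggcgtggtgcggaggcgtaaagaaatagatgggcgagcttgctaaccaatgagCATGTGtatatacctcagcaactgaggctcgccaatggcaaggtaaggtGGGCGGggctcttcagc
The windows differ in base composition: G and C make up 55.6% of the Rab32 window, 31.6% of the Rab39b window and 57.6% of the Rab40b window. The Rab32 window holds none of the 4 motifs, that of Rab39b 3 TATAAA matches, all on the strand opposite to the gene, and that of Rab40b a GGGCGG and a CATGTG. Of the 59 genes, 48 had a window in the table, with 60 windows in all, and their median share of G and C was 60.2% against 52.4% over the 32851 windows of all genes. GGGCGG was found in 66.7% of the Rab windows and 32.7% of all, CACGTG in 8.3% and 6.0%, and TATAAA in 6.7% and 12.4%. CATGTG was in the windows of 5 of the 48 genes and in 12.3% of all windows. A match is a string of letters only and does not show a bound site.

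The second comparison asks which Rab transcripts change when the cells' own miR-140 is blocked, against a block of miR-449. No Rab gene passed limma's test, as for 0% of all genes, and the smallest adjusted p in the family was 0.974. Rab32 read 9.62, 9.99 and 9.81 after anti-miR-140 against 9.71, 9.91 and 9.82 after anti-miR-449, a difference of -0.01 ± 0.11 (interval -0.25 to 0.23). These 6 values lay close together and the groups overlapped throughout. The same held for Rab35 (0.00 ± 0.08) and Rab12 (0.01 ± 0.07), whereas Rab6b differed by 0.17 ± 0.10 and Rab40b by -0.08 ± 0.08, neither past the test. For 56 of the 59 genes the 95% interval lay within 0.5 log2 units of 0 in both directions, the exceptions being Rab27a, Rab3c and Rab38. The median difference was 0.00, as over all genes to 2 decimals.

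At an unadjusted p under 0.05 there were 2 Rab genes, or 3.39% of the family, where 3.47% of all genes were at that level. Rab27a, which ties melanosomes and cytotoxic granules to myosin motors, read 3.60, 3.83 and 4.17 after anti-miR-140 against 3.39, 3.60 and 3.28 after anti-miR-449. Its groups met at 3.60, and the difference was 0.44 ± 0.15 (unadjusted p = 0.0149, limma adjusted p = 0.974). The value lay below the array median in every array, and the 3 other Rab27a probe sets, dimmer still, gave -0.14, -0.07 and -0.02. Rab3c, a Rab of synaptic vesicles, read 2.89, 3.18 and 2.61 after anti-miR-140 against 3.13, 3.18 and 3.45 after anti-miR-449, a difference of -0.36 ± 0.15 (unadjusted p = 0.0382, adjusted p = 0.974), again below the median in every array. Its 4 other probe sets ranged from -0.07 to 0.14.

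Groups without overlap were found for 3 Rab genes, where 7.72% of all genes showed none. Rab21, which accompanies integrins through endosomes, was 9.75, 9.81 and 9.82 with anti-miR-140 against 9.70, 9.74 and 9.62 with anti-miR-449. Rab5a, the fusion factor of early endosomes, was 9.86, 9.82 and 9.80 against 9.78, 9.70 and 9.73. Rab39b was 6.06, 6.20 and 6.24 against 6.29, 6.25 and 6.37. The differences were 0.11, 0.09 and -0.14, each with an adjusted p of at least 0.974. Rab38 (-0.21 ± 0.14), the Golgi gene Rab30 (-0.20 ± 0.10) and the secretory granule gene Rab37 (0.13 ± 0.13) did not pass either. The 45 genes outside the naming rule, Rab21 and Rab5a included, differed by -0.18 to 0.13.

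Set side by side, the 2 experiments ask whether a transcript goes down when miR-140 is raised and up when it is blocked. The difference of the contrasts, fitted over all 12 arrays, called no Rab gene, as for 0% of all genes (smallest adjusted p = 0.997). At an unadjusted p under 0.05 there was 1, Rab40b, which is 1.69% of the family where 2.35% of all genes were at that level. Its difference was 0.59 in the siRNA arrays and -0.08 in the anti-miR arrays, a difference of contrasts of 0.67 ± 0.20 (unadjusted p = 0.00445), opposite in sign to the pattern asked about. The largest negative value was that of Rab27a, -0.38 ± 0.22 (unadjusted p = 0.114), which did not pass, and its siRNA difference of 0.07 was not negative. Rab17 had both signs as asked (-0.19 and 0.06), with a difference of contrasts of -0.24 ± 0.20 (unadjusted p = 0.24) that did not pass either. The second Rab17 probe set, also dim, gave 0.08, -0.04 and a difference of contrasts of 0.12, so it had the opposite signs. Some other Rab genes had both signs as asked too, with smaller differences of contrasts, and none passed. Without the 2 siRNA arrays, 7 Rab genes were called in this contrast, where 5.73% of all genes were called.

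The proteins that load, switch and read Rab GTPases were taken from 5 lists, on which 160 of 172 genes were measured. No gene on them passed in the labelled siRNA comparison or in the anti-miR comparison (limma; 2 and 1 at an unadjusted p under 0.05). Without the 2 arrays, 3 of the 160 were higher and 3 lower with siRNA-140, shares below those of all genes (2.45% and 2.39%). Among 21 measured genes of the Rab32 and Rab38 pathway, 1 was called: Ankrd27, whose protein (VARP) binds GTP-loaded Rab32 and Rab38 and activates Rab21. Ankrd27 read 7.85, 7.67 and 6.62 after siRNA-140 against 7.68, 6.71 and 6.57 after siRNA-96, high and low in the same arrays as Rab32. Its difference was 0.39 ± 0.37 as labelled (adjusted p = 0.997) and 1.12 ± 0.15 without the 2 arrays (limma adjusted p = 0.0023).

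Among 58 measured effectors, 2 were higher in that fit and none lower. These were Rufy1 (1.17 ± 0.18, adjusted p = 0.00477), an endosomal effector of Rab4 and Rab14, and Rab11fip5 (0.79 ± 0.18, adjusted p = 0.039), a Rab11 effector. Among 41 exchange factors, which include Ankrd27, the Rab7 exchange factor subunit gene Ccz1 was lower (-0.86 ± 0.14, adjusted p = 0.0081), as was Ric1 (-0.74 ± 0.17, adjusted p = 0.0357), a subunit of the Rab6 exchange factor. Among 37 GTPase-activating proteins, Tbc1d9b was lower (-1.25 ± 0.15, adjusted p = 0.00113) and none was higher. It read 7.20, 7.05 and 8.43 after siRNA-140 against 7.05, 8.30 and 8.44 after siRNA-96. None of the 7 genes of prenylation and membrane delivery was called. In the anti-miR arrays Ankrd27 differed by 0.04 ± 0.07 and Tbc1d9b by -0.07 ± 0.07.

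The spread between replicates set the limits of these comparisons. The median within-group SD of the Rab genes was 0.17 in the siRNA arrays and 0.085 in the anti-miR arrays, against 0.161 and 0.101 over all genes. It was wider in the siRNA arrays for 47 of the 59 Rab genes and for 75.1% of all genes. The 5 widest in the siRNA arrays were Rab39b (0.704), Rab32 (0.621), Rab6b (0.513), Rab35 (0.501) and Rab12 (0.448), all above the SD of at least 96.2% of genes there, and none of them exceeded 0.149 in the anti-miR arrays. At the other end Rab1a, which carries cargo from the endoplasmic reticulum to the Golgi, had an SD of 0.0306 in the siRNA arrays. It read 11.81, 11.82 and 11.76 after siRNA-140 against 11.77, 11.77 and 11.72 after siRNA-96, and differed by 0.04 (interval -0.18 to 0.27). Of the 59 genes, 44 lay above the array median in every array, 9 below it in every array and 6 in between. The 9 dim genes were Rab17, Rab26, Rab27a, Rab33a, Rab39, Rab3c, Rab42, Rab44 and Rab9b.

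**Figure D4:**
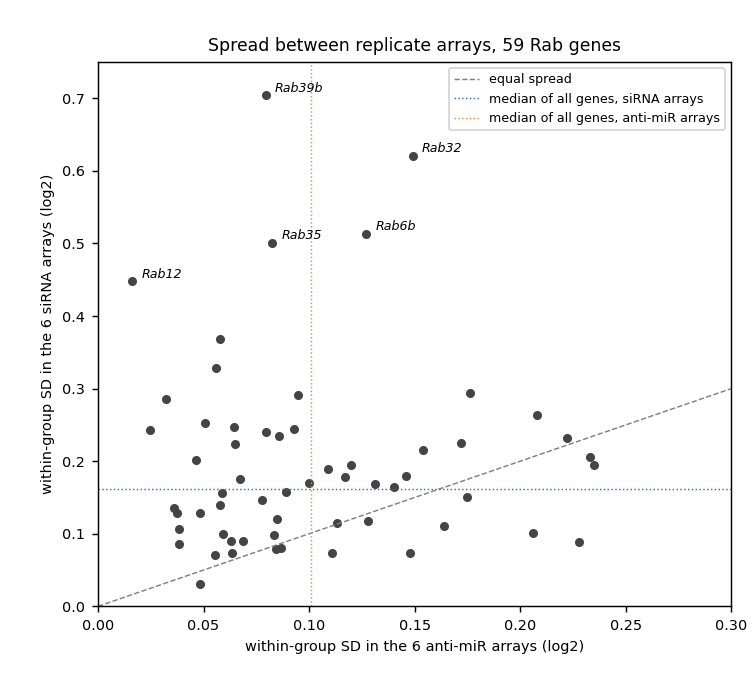
Within-group SD (log2) of each of the 59 Rab genes in the 6 siRNA arrays (y axis) against that in the 6 anti-miR arrays (x axis); the dashed line marks equal spread and the dotted lines the medians of all genes, 0.161 and 0.101. Rab39b, Rab32, Rab6b, Rab35 and Rab12 lie far above the dashed line, and 47 of the 59 points lie above it.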

How the data were processed

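Total RNA of the 12 samples was labelled with biotin for Affymetrix arrays, per the labels. The deposited values are log2 values made by the authors with RMA, per the submitters' processing notes; its version, the probe set definitions and whether both experiments were normalized together are not given in the sources used here. Of 45101 probe sets, 64 array controls were left out. Gene symbols came from the platform annotation, and gene IDs of all 59 Rab genes matched the mouse RefSeq table. limma 3.58.1 in R 4.3.3 (lmFit, eBayes) was fitted to the remaining 45037 probe sets, separately on the 6 arrays of each experiment because their spread differed, and p-values were Benjamini-Hochberg adjusted over all probe sets. Shares of all genes use the highest probe set of each of 18193 genes. The difference of the contrasts was fitted over 12 arrays. The fit was tested on simulated data with independent noise, which did not hold the arrangement of siRNA arrays across the labels.

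The Rab genes, their role groups and the lists of regulators were chosen, and written from general knowledge, with earlier results of these data known. Described singly are Rab32, genes called in the fit of either experiment, of the difference or of the 4 arrays, genes at an unadjusted p under 0.05 as labelled, the 3 largest differences each way in each contrast and the 5 largest spreads in the siRNA arrays; Rab5a, Rab21, Rab1a, Rab11a and Rab34 were added after their values were seen. Alternatives were all arrays in the fit, a replicate block, further normalizations, a filter on low values, other variance models, array weights, other probe set rules and arrays left out; array weights and the block were not tried on the 4-array fit, whose other alternatives were chosen after seeing the data. The number of arrays limits the precision.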

Additional observations from a re-analysis of the deposited data

How the results depend on the processing

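With the groups as labelled, the count of Rab genes called stayed at 0 in both comparisons under every alternative tried on 6 or 12 arrays, each array left out included. In the siRNA comparison it became 5 on 4 arrays, where 4.83% of all genes were called. The arrays left out there were replicate 3 of siRNA-140 and replicate 1 of siRNA-96. With the anti-miR arrays added to the 4, the count was 12, where 11.1% of all genes were called. In that setting the difference of the contrasts called 7, where 5.73% of all genes were called. From the count of 5 on 4 arrays, adjusting over genes gave 8, probe sets at or above the median level 8, and an intensity trend with robust variances 9. For the adjustment over genes, the level filter and the robust variances, the share of all genes called was not computed. The rise from 5 therefore cannot be read as particular to the Rab genes. Leaving out any of the 4 arrays gave 0 to 0, which leaves 1 array in a group that is assumed to vary like the other. The family median of 0.08 there was 0.036 after a further quantile normalization, 0.055 after median centring and 0.09 to 0.11 with single arrays left out; the cause was not tested. Rab12 was no longer called (0.47, adjusted p = 0.125) with the mean of its probe sets. With single arrays left out, the labelled siRNA difference ranged from 0.295 to 0.91 for Rab32 and from -0.58 to 0.19 for Rab39b, and the anti-miR difference of Rab32 from -0.098 to 0.087; the anti-miR family median ranged from 0.005 to 0.017. No other result computed under these alternatives changed direction.

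With the replicate number as a block, 0 Rab genes were called in each comparison, and the family median stayed at 0.07 and 0.00. Deviations of same-numbered arrays correlated at 0.41, -0.241 and 0.439 in the siRNA experiment and at -0.0137, 0.103 and -0.0316 in the anti-miR experiment. In each experiment 2 of 6 arrays correlated best with their own number. The siRNA deviations include the 2 arrays that lay with the opposite label. Whether same-numbered arrays shared a culture or a batch therefore cannot be told from these values.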

Other observations

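Some Rab genes were read by several probe sets, 132 in all for the 59 genes, and these did not always share a direction. Rab27b, a Rab of secretory granules, differed by 0.04 (adjusted p = 0.951) at its brightest probe set on the 4 arrays left when replicate 3 of siRNA-140 and replicate 1 of siRNA-96 are not used, while its dimmest, with a mean of 5.20, differed by -0.75 (limma adjusted p = 0.022). By replicate number, that probe set read 4.50, 4.34 and 5.19 after siRNA-140 against 4.28, 5.27 and 5.06 after siRNA-96. The brightest read 7.34, 7.20 and 7.31 against 7.04, 7.28 and 7.18. With Rab6b, where 2 further probe sets were called, 3 of the 73 probe sets not used for the family passed in that fit. In the same fit 4.83% of all genes passed, each read by its highest probe set. In either labelled comparison 0 of the 73 passed, as for 0% of all genes.

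Over the Rab genes, siRNA-140 replicate 3 and siRNA-96 replicate 2 were the closest pair of siRNA arrays, with a median absolute difference of 0.06 and a largest of 0.34. Pairs of anti-miR arrays ranged from 0.07 to 0.12 in the median. The 2 arrays were not the same values: 3.17% of all probe sets were identical to 2 decimals, against 2.43% to 3.61% in pairs of anti-miR arrays.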
